A study of Saccharomyces cerevisiae with 4 samples.

Results

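The genes of the yeast proteasome and of its transcriptional activator Rpn4 were examined in RNA sequencing libraries of budding yeast (Saccharomyces cerevisiae). The 33 genes were taken by systematic name from the deposited table of counts: 14 genes of the 20S core particle (PRE1 to PRE10, PUP1 to PUP3 and SCL1), 18 genes of the regulatory particle (RPT1 to RPT6 and the RPN subunits) and RPN4. All 33 were among the 7445 features of the table, and all 33 passed the filter on low counts that left 6372 features for testing. The libraries came from 2 samples of a trf4 deletion strain (trf4::HphMX4, in which a hygromycin resistance cassette replaces TRF4; trf4Δ below) and 2 samples of the wild type, all in the W303 background and all taken in exponential growth in YPDA, a rich glucose medium. Total RNA was depleted of ribosomal RNA before the libraries were made. Nothing in the labels says that the samples of a group were separate cultures, so the p-values measure only the spread between these samples, which may be technical.

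The proteasome degrades proteins that carry ubiquitin chains. Its 20S core is a barrel of alpha rings, which gate the entrance, and beta rings, which hold the proteolytic sites, and the regulatory particle binds, unfolds and feeds in substrates through a base, with its ring of Rpt ATPases, and a lid. In yeast most of these genes are activated by Rpn4, a transcription factor that binds the proteasome-associated control element (PACE) in their promoters and is itself degraded quickly by the proteasome, which closes a feedback loop. TRF4, the gene deleted here, makes an enzyme that adds short poly(A) tails to nuclear RNAs and so hands them to the exosome for degradation.

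Library totals lay between 53516242 and 57964567 counts. TRF4, listed as PAP2 (YOL115W), was nearly absent from the libraries labelled as deleted (21 and 40 counts) and present in the others (8102 and 8468 counts), so the targeted gene followed the labels in all 4. The labels give no batch or date. Levels are given as CPM, the counts scaled to a common library size with TMM factors (trimmed mean of M values), and as CPM per kilobase where genes are compared with each other. Differences are log2 fold changes of trf4Δ over the wild type from edgeR's quasi-likelihood test, with p-values adjusted by the Benjamini-Hochberg method over all features tested, and a gene was called when its adjusted p was under 0.05. By this rule 31.3% of all features were called higher and 28.9% lower in trf4Δ, together 60.1%. The sign of small changes depended on this scaling, since with library size alone the median of all features moved from 0.01 to 0.34 and 49.6% were called higher and 11.6% lower. In bulk samples such as these, a change in the number of cells of one kind and a change in RNA per cell cannot be told apart.

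The element through which Rpn4 acts is shown first, because most of the genes share it. The 9 letters GGTGGCAAA were searched on both strands in the 300 bases before each start codon (RefSeq genome, build R64, the same sequence as sacCer3). They were found in 27 of the 32 subunit genes (84.4%), in 12 of 14 core genes, 8 of 10 base genes and 7 of 8 lid genes, against 46 of 5969 other protein-coding genes (0.771%). Over all 6002 promoters the share was 1.22%. The other genes included divergent neighbours of subunit genes, whose windows held the subunit's own copy. The following stretches hold the element in capitals with 10 bases on either side, read 5′ to 3′ on the strand on which the element reads in this direction. They are shown in the reference sequence, not that of W303, and belong to catalytic subunits and to subunits at either end of the changes described below.
PRE2, chrXVI:732184-732212, plus strand: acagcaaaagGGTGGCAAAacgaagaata
PRE3, chrX:435035-435063, plus strand: aacggaatccGGTGGCAAAaaagggaaaa
PRE6, chrXV:255218-255246, minus strand: tttcccttccGGTGGCAAAagaatcttcg
PRE7, chrII:141150-141178, plus strand: aaactcaaagGGTGGCAAAaacaagcggt
RPN2, chrIX:220801-220829, minus strand: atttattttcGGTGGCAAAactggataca
RPT1, chrXI:174048-174076, minus strand: ttagttttcgGGTGGCAAAattcggtaat
RPT4, chrXV:813802-813830, plus strand: ctttcccttcGGTGGCAAAttccactatt
RPT6, chrVII:411352-411380, minus strand: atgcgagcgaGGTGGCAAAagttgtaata
RPN9, chrIV:1322086-1322114, plus strand: gctttcatccGGTGGCAAAagtaagaaca
RPN11, chrVI:153259-153287, plus strand: ggacctccaaGGTGGCAAAttcacaagaa

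The 5 subunit genes without the exact letters were PRE5, PUP1, RPN8, RPN10 and RPN13. Each held a copy with 1 substitution, a match that 432 of the other protein-coding genes (7.24%) also had. Counted from the 5′ end of the element, the substitution was G1A in PRE5, PUP1 and RPN8 and A7G in RPN10 and RPN13. These stretches are shown in the same way, so that the shared letters can be compared.
PRE5, chrXIII:901552-901580, plus strand: cctattatagAGTGGCAAAattaaaaatt
PUP1, chrXV:631891-631919, minus strand: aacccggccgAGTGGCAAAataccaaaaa
RPN8, chrXV:817085-817113, minus strand: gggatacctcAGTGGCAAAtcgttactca
RPN10, chrVIII:498968-498996, minus strand: tgtaaattccGGTGGCGAAaacccgcctg
RPN13, chrXII:965656-965684, minus strand: ttattcgcgaGGTGGCGAAagctttgcta

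The exact elements began between 84 and 183 bases before the start codon, with a median of 120. Of these, 19 read in the direction of the gene and 8 in the opposite direction. RPN4 itself had neither the exact letters nor a copy with 1 substitution in its window. A heat shock element (GAANNTTC, both strands, which read alike) was found before RPN4, as it was in 11.5% of all promoters. The letters TCCGCGGA, a site of Pdr1 and Pdr3 (both strands, which read alike), were not in the 300 or the 500 bases before RPN4, and 0.2% and 0.65% of all promoters held them. A match is only a match of letters, and binding was not measured.

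**Figure D1:**
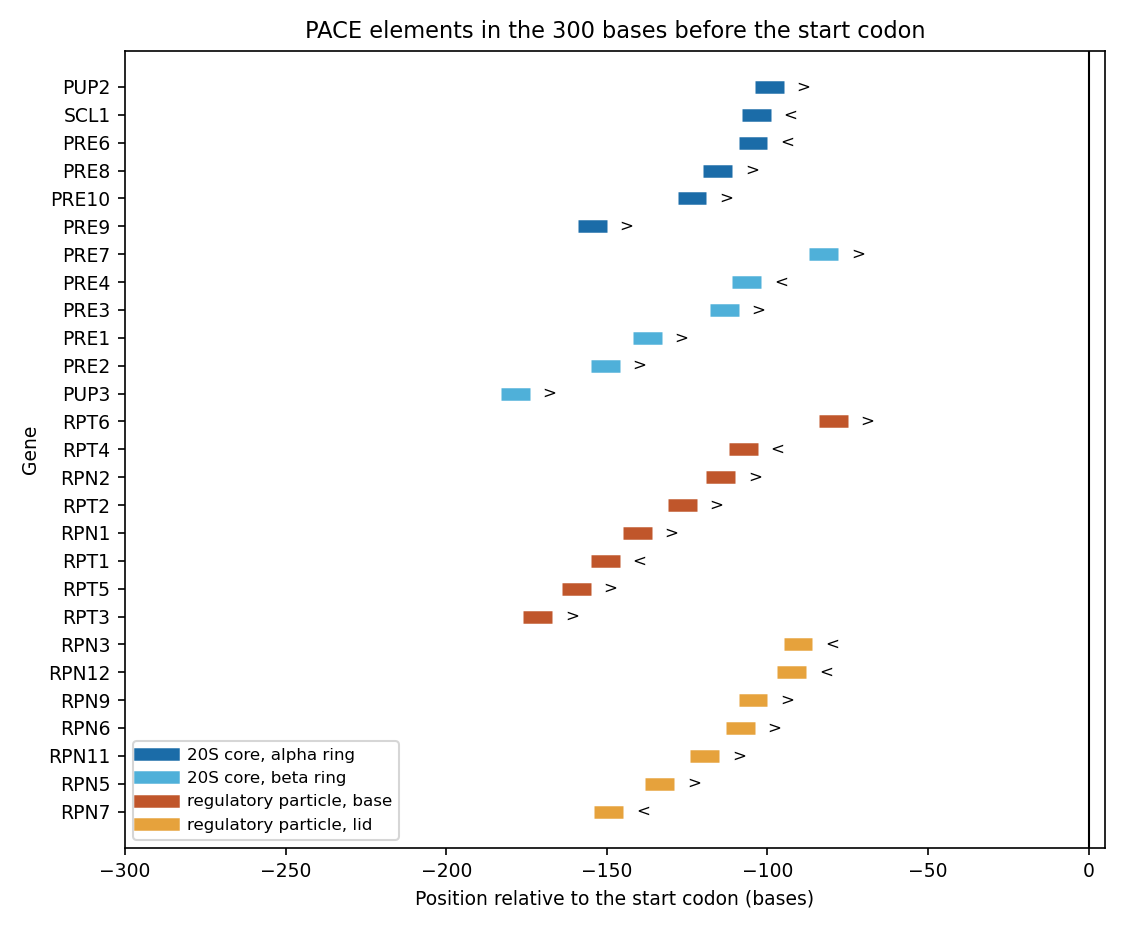
Position of the exact PACE element (bars, 9 bases) in the 300 bases before the start codon of each of the 27 subunit genes that hold it, with the distance from the start codon in bases on the x axis and colours for the part of the proteasome. Arrowheads give the direction in which the element reads relative to the gene, and the bars begin between 84 and 183 bases before the start codon in all parts.

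RPN4 (YDL020C, chrIV:415113-416708, minus strand) was the only one of the 33 genes that rose, although with library size alone 14 subunits were called higher as well. Its level was 117 and 122 CPM in the trf4Δ libraries and 73.1 and 72.9 CPM in the wild type. Both trf4Δ libraries lay above both wild-type libraries, and the replicates of each group were close to each other. The means were 120 ± 3.62 CPM (SD, n = 2) and 73.0 ± 0.141 CPM (SD, n = 2). The log2 fold change was 0.71 (SE 0.09, 95% interval 0.51 to 0.91), a level 1.64 times that of the wild type, with an adjusted p of 0.000318. RPN4 kept this call under every scaling, filter and tool tried and without each library in turn, with log2 fold changes between 0.68 and 1.04. Ordered from the highest log2 fold change, it stood at place 1382 of 6372 features. Rises of this size or more were thus common in trf4Δ when features of every abundance are counted together.

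The subunit genes all lay below RPN4. Of the 32, 0 were called higher and 4 were called lower (RPT4, RPT6, RPN8 and RPN9, all of the regulatory particle), a called share of 12.5% against the 60.1% of all features, whereas with library size alone 14 were called higher and 0 lower. At an unadjusted p under 0.05 there were again 0 higher, and DESeq2 also gave 0 higher, with 6 lower. Without the first trf4Δ library 0 were called lower, without the second 5 were lower and 2 higher, and without the first or the second wild-type library 1 and 2 were lower. Their log2 fold changes ran from -0.37 to 0.24 with a median of -0.09, where the median of all features was 0.01. The SD over the subunits was 0.15 and that over all features was 0.91. The SE of a log2 fold change reached 0.122 among the subunits and 1.33 among all features. The 2 SDs were not matched for abundance. On the TMM scaling the whole 95% interval of the log2 fold change lay within 0.5 of zero for 27 of the 32. This held for 28.3% of all features, a share likewise not matched for abundance. The count was not repeated with library size alone. The interval reached furthest below zero for RPT6 (-0.59) and furthest above for RPN2 (0.52).

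**Figure D2:**
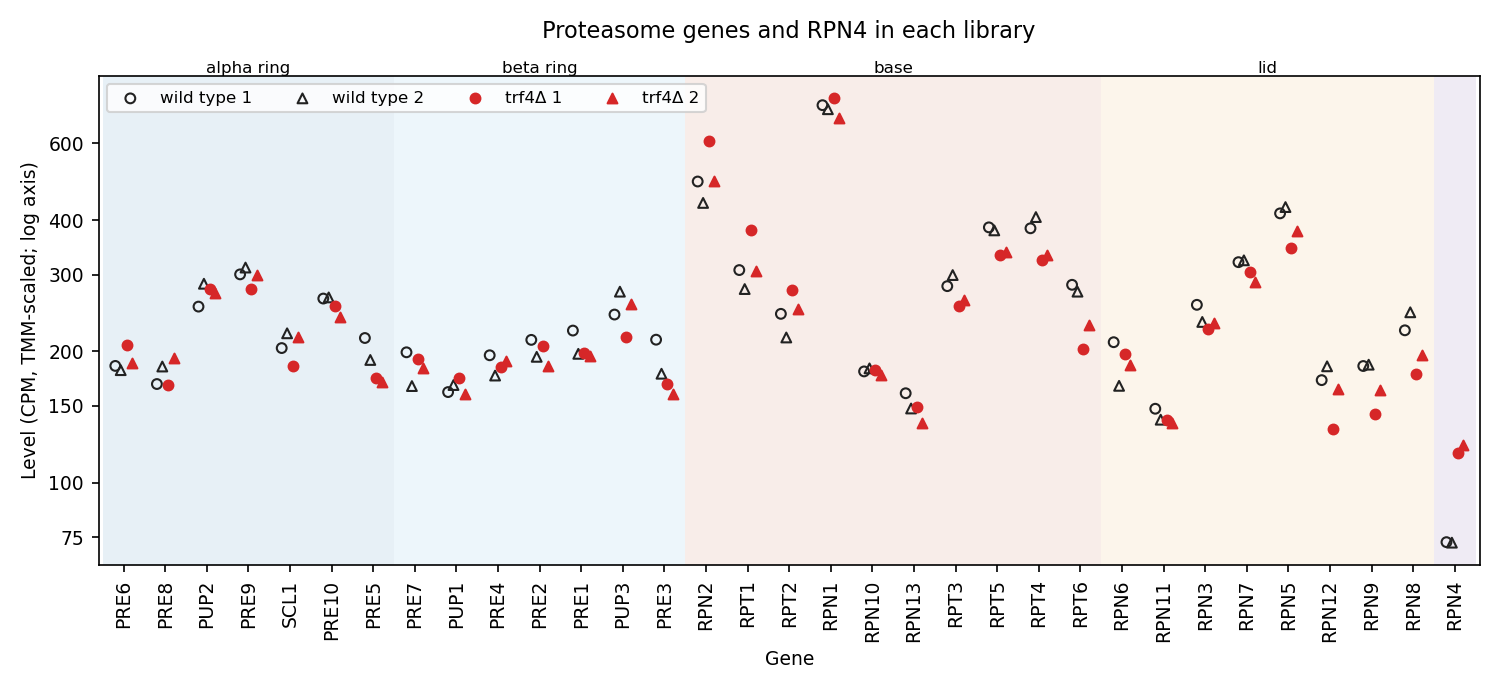
Level of each gene in CPM (log axis) in the 2 wild-type libraries (open symbols) and the 2 trf4Δ libraries (filled symbols), with genes ordered by part of the proteasome and then by fold change. RPN4 stands apart at the right with 117 and 122 CPM in trf4Δ against 73.1 and 72.9 CPM in the wild type, while symbols of most subunits lie close together.

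The difference between RPN4 and its target genes does not depend on how the libraries were scaled, since it can be read within each library. Per kilobase, RPN4 stood at 18.6% and 19.1% of the geometric mean of the 32 subunits in the wild-type libraries and at 32.0% and 33.5% in the trf4Δ libraries. The log2 fold change of RPN4 exceeded the median of the subunits by 0.80 as reported and also with library size alone. Without 1 library this difference lay between 0.76 and 0.83.

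**Figure D3:**
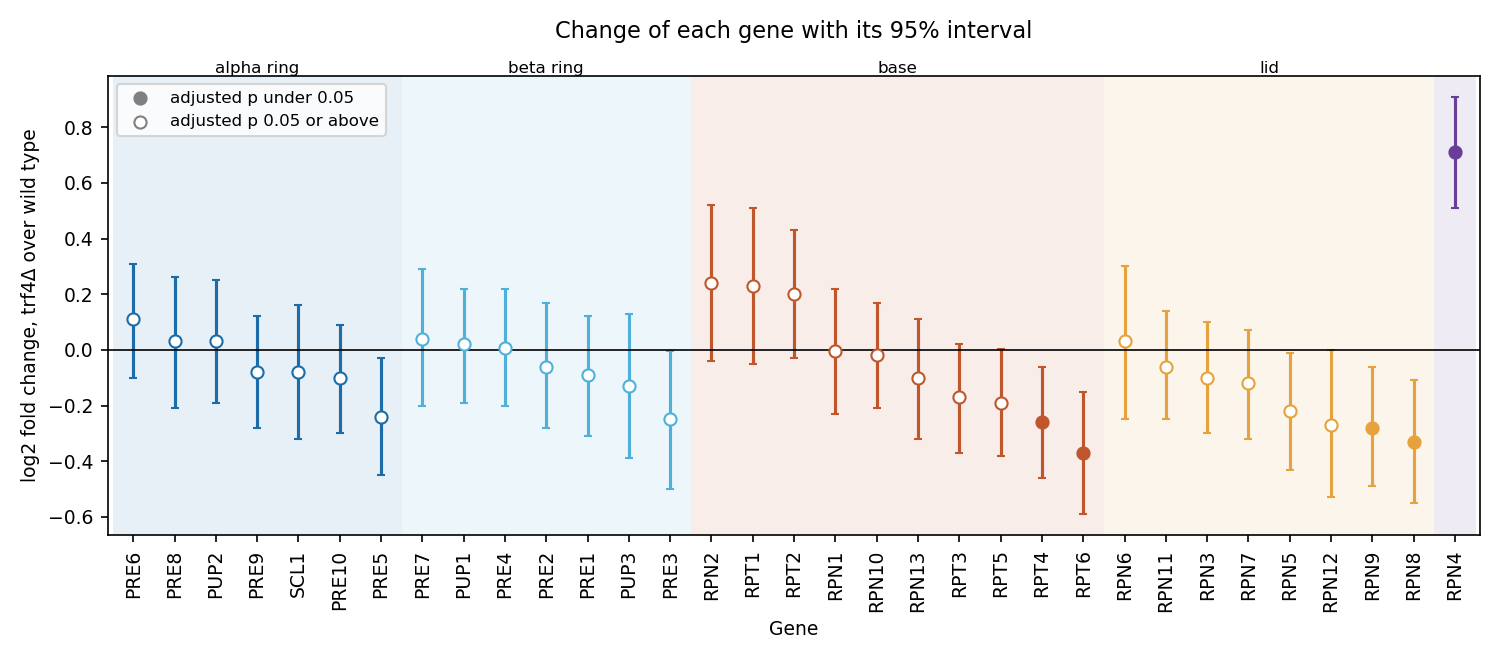
The log2 fold change of trf4Δ over the wild type for each of the 33 genes, with its 95% interval as a bar and a filled point where the adjusted p was under 0.05. RPN4 (0.71) is the one filled point above zero, and RPT4, RPT6, RPN8 and RPN9 are the filled points below it, of which RPT4 and RPN9 turn slightly positive with library size alone.

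In the 20S core, 0 of 14 genes were called in either direction, and the median log2 fold change was -0.07 (0.25 with library size alone, and 7 called higher). On the TMM scaling all 14 intervals lay within 0.5 of zero. This count was not repeated with library size alone, where PRE6 stood at 0.43. At an unadjusted p under 0.05, PRE3 and PRE5 were lower and no core gene was higher. The alpha ring, with a median of -0.08, and the beta ring, with -0.06, each had 7 genes.

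The proteolytic sites of the barrel lie in the products of PRE3 (caspase-like), PUP1 (trypsin-like) and PRE2 (chymotrypsin-like). PRE3 (YJL001W) had 169 and 160 CPM in trf4Δ against 213 and 178 CPM in the wild type, with a log2 fold change of -0.25 (SE 0.11; 0.07 with library size alone) and an adjusted p of 0.0748. Both trf4Δ libraries were below both wild-type libraries, but the gap between the 2 wild-type values was about as wide as that between the group means. PUP1 (YOR157C) had 174 and 159 CPM in trf4Δ against 161 and 167 CPM in the wild type, at 0.02 (95% interval -0.19 to 0.22). PRE2 (YPR103W) had 206 and 185 CPM in trf4Δ against 213 and 194 CPM in the wild type, at -0.06 (95% interval -0.28 to 0.17), which turned to 0.26 with library size alone. For PUP1 and PRE2 the groups overlapped.

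PRE3 was the lowest of the core, followed by PRE5, a subunit of the alpha ring, as is PRE6 at the other end. PRE5 (YMR314W) had 174 and 170 CPM in trf4Δ against 215 and 191 CPM in the wild type. Its log2 fold change of -0.24 (SE 0.09) had an adjusted p of 0.0522, and it was called lower with size factors of the DESeq2 type (0.0423) and by DESeq2 (0.0350), whereas with library size alone it turned to 0.08. PRE6 (YOL038W) was at the upper end, with 207 and 188 CPM in trf4Δ against 185 and 181 CPM in the wild type, and a log2 fold change of 0.11 (95% interval -0.10 to 0.31). PRE7 (YBL041W), of the beta ring, came next at 0.04, with 193 and 183 CPM in trf4Δ between the wild-type values of 199 and 167 CPM.

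In the base, 2 of 10 genes were called lower and 0 higher, where 28.9% of all features were lower. Both were among the 6 genes of the ATPase ring. RPT6 (YGL048C) had 202 and 230 CPM in trf4Δ against 284 and 274 CPM in the wild type, with means of 216 ± 19.6 and 279 ± 7.08 CPM (SD, n = 2). Its log2 fold change of -0.37 (SE 0.09) was the largest fall among the 32 subunits, with an adjusted p of 0.0111. RPT4 (YOR259C) had 324 and 333 CPM in trf4Δ against 383 and 406 CPM in the wild type, and fell by 0.26 on the log2 scale (SE 0.09, adjusted p 0.0296). For both genes the groups did not overlap. The call of RPT4 was lost when any 1 library was left out (log2 fold changes of -0.30 to -0.22), and that of RPT6 without the first trf4Δ library (-0.28) or the first wild-type library (-0.34). With library size alone neither was called, and RPT4 turned to 0.06.

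The ATPase genes did not move as 1 block. RPT1 (YKL145W) had 380 and 305 CPM in trf4Δ against 307 and 278 CPM in the wild type, at 0.23 (95% interval -0.05 to 0.51), and RPT2 (YDL007W) was at 0.20, while RPT3 was at -0.17 and RPT5 at -0.19. RPN2 (YIL075C), a large scaffold subunit of the base, had 606 and 491 CPM in trf4Δ against 490 and 438 CPM in the wild type, at 0.24 (95% interval -0.04 to 0.52). In RPT1 and RPN2 the first trf4Δ library was higher than the second, and without the second both were called higher, each at a log2 fold change of 0.38 (adjusted p 0.0335). RPN1 (YHR027C), the other large scaffold and the most abundant of the 33 by CPM, had 762 and 685 CPM in trf4Δ against 734 and 718 CPM in the wild type. The ubiquitin receptors RPN10 (-0.02) and RPN13 (-0.10) were not called.

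In the lid, 2 of 8 genes were called lower and 0 higher, and the called share was near the 28.9% of all features called lower. On the TMM scaling 7 of 8 had a negative log2 fold change, as had 3129 of the 6372 features. With library size alone signs turned in the lid, as for RPN11 (0.26) and RPN9 (0.05). RPN8 (YOR261C), the partner of the deubiquitinase Rpn11, had 178 and 196 CPM in trf4Δ against 224 and 246 CPM in the wild type. It fell by 0.33 on the log2 scale (SE 0.09, adjusted p 0.0183). RPN9 (YDR427W), another structural subunit, had 144 and 163 CPM in trf4Δ against 185 and 186 CPM in the wild type, and fell by 0.28 (SE 0.09, adjusted p 0.0346). The groups did not overlap in either gene. The call of RPN8 was lost without the first trf4Δ library (-0.26) or the second wild-type library (-0.25), and that of RPN9 without the first trf4Δ library (-0.19) or either wild-type library (-0.28 and -0.26). With library size alone neither was called, and RPN9 turned to 0.05.

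RPN11 (YFR004W), which cuts ubiquitin chains off the substrate, had 139 and 137 CPM in trf4Δ against 148 and 140 CPM in the wild type, at -0.06 (95% interval -0.25 to 0.14; 0.26 with library size alone). RPN6 (YDL097C), which joins the lid to the core, had the highest log2 fold change of the lid at 0.03, and its trf4Δ values of 198 and 186 CPM lay between the wild-type values of 210 and 167 CPM. RPN5 (-0.22, adjusted p 0.0625) and RPN12 (-0.27, adjusted p 0.0776) were not called.

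Counted by overlap alone on the TMM-scaled levels, both trf4Δ libraries lay above both wild-type libraries in 3 of the 32 subunits (PRE6, RPT2 and RPN2). They lay below both in 15. Among all features the groups were apart in the upward direction for 41.8% and in the downward direction for 40.2%. The downward count was 4 of 14 in the core, 4 of 10 in the base and 7 of 8 in the lid. All of these counts rest on the TMM scaling and were not repeated with library size alone. With that setting 14 subunits were called higher and 0 lower. With 2 libraries a group the smallest p that an exact permutation test allows, two-sided, is 0.333, so no single gene was tested in that way.

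The core and the regulatory particle were then set side by side. The median log2 fold change was -0.07 in the core and -0.11 in the regulatory particle, a difference of 0.045 (0.12 without the first trf4Δ library). The regulatory genes were spread more widely, with an SD of 0.19 against 0.10. Relative to the wild-type mean, the median core gene stood at -0.07 and -0.02 in the trf4Δ libraries, and the median regulatory gene at -0.10 and -0.14. Within the regulatory particle, the lid stood at -0.21 and -0.14 and the base at -0.02 and -0.12. In the summed CPM per kilobase, the core was 1.03 and 1.05 times the regulatory particle in the trf4Δ libraries and 1.00 and 1.01 times in those of the wild type. The 2 values of each group did not overlap with those of the other, but the shift was a few percent, and no test was made of a value summed over the genes.

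Levels per kilobase of coding sequence were of similar size across the complex in every library (for PRE3, the span of the gene with its intron was used). The highest subunit was 2.51 to 3.47 times the lowest, and the coefficient of variation over the 32 subunits was 25.9% and 29.5% in the wild type and 26.2% and 27.9% in trf4Δ. PUP3 and PRE9, of the beta and alpha rings, were at the top, with 393 and 444 CPM per kilobase for PUP3 and 387 and 401 CPM per kilobase for PRE9 in the wild type. The lowest subunit was RPN9 in both trf4Δ libraries and the first wild-type library, and RPN6 in the second wild-type library. In the wild type RPN9 had 157 and 158 CPM per kilobase and RPN6 had 161 and 128 CPM per kilobase. RPN3 (162.7 and 148.7) and RPN11 (160.5 and 151.5) were about as low there. In trf4Δ the corresponding values were 349 and 415 for PUP3, 359 and 386 for PRE9, 122 and 138 for RPN9 and 152 and 143 for RPN6. The replicates of PUP3 and PRE9 overlapped in both groups, while those of RPN9 and RPN6 overlapped in the wild type but not in trf4Δ, where RPN9 was the lower. The geometric mean was 285 and 279 CPM per kilobase for core genes and 219 and 213 for regulatory genes in the wild type, against 270 and 272 and against 202 and 201 in trf4Δ. Across the 32 subunits the Pearson correlation of log2 CPM per kilobase was 0.952 between the wild-type libraries, 0.926 between the trf4Δ libraries and 0.817 to 0.947 between libraries of different genotype. These are descriptions across genes of the same libraries.

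The change in trf4Δ went with abundance across the whole table, and the subunits are abundant transcripts. With the features split by mean expression into 10 groups of about equal size, 22 subunits were in the second highest group, 5 in the highest and 5 in the third highest. The other features in these groups had median log2 fold changes of -0.28, -0.53 and -0.18, and 67.8%, 78.4% and 58.9% of them were called, mostly lower. The subunits had medians of -0.08, -0.19 and -0.10 there. They lay above the median of the other features in 20 of 22, 5 of 5 and 3 of 5 cases. RPN4 was in the seventh group from the bottom, where other features had a median of -0.16. Of the 636 other features there, 125 were called higher and 239 lower. A feature could pass the low-count filter through the libraries of either genotype alone, which bears on the groups of lowest expression. At least 10 counts were held by 6399 and 6381 features in the trf4Δ libraries and by 6237 and 6221 in the wild type. Why the change goes with abundance was not tested.

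**Figure D4:**
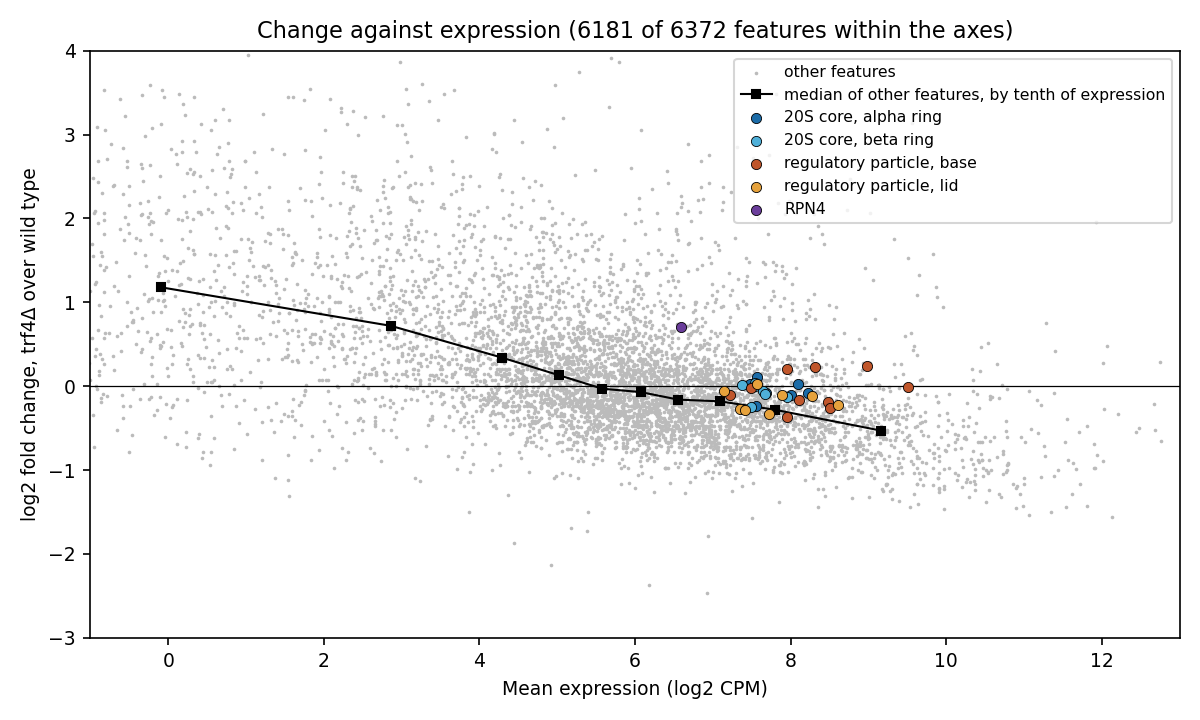
The log2 fold change of trf4Δ over the wild type against mean expression (log2 CPM) for all features (grey), with the median of other features in each of 10 groups of mean expression (black squares) and the 33 genes in colour. The axes hold 6181 of the 6372 features. The squares fall from 1.18 at the left to -0.53 at the right, and most subunits lie above them, between -0.37 and 0.24. Features at the left could pass the low-count filter through either genotype alone.

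How the libraries were scaled decided the sign of these small changes. With library size alone in place of TMM, the 14 subunits called higher were 7 in the core and 7 in the regulatory particle, the medians were 0.25 and 0.21, and the 4 lower calls were lost. As a share of all counts, which uses no TMM factor, the 32 subunits made up 0.902% and 0.873% of the trf4Δ libraries, against 0.761% and 0.730% of the wild-type libraries. RPN4 was called higher under both settings. Relative to the median of all features, 9 of 32 subunits were higher under both, and the median subunit lay below it under both. A change of scaling moves all features by nearly the same amount, so these comparisons with the median of all features could hardly have differed.

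**Figure D5:**
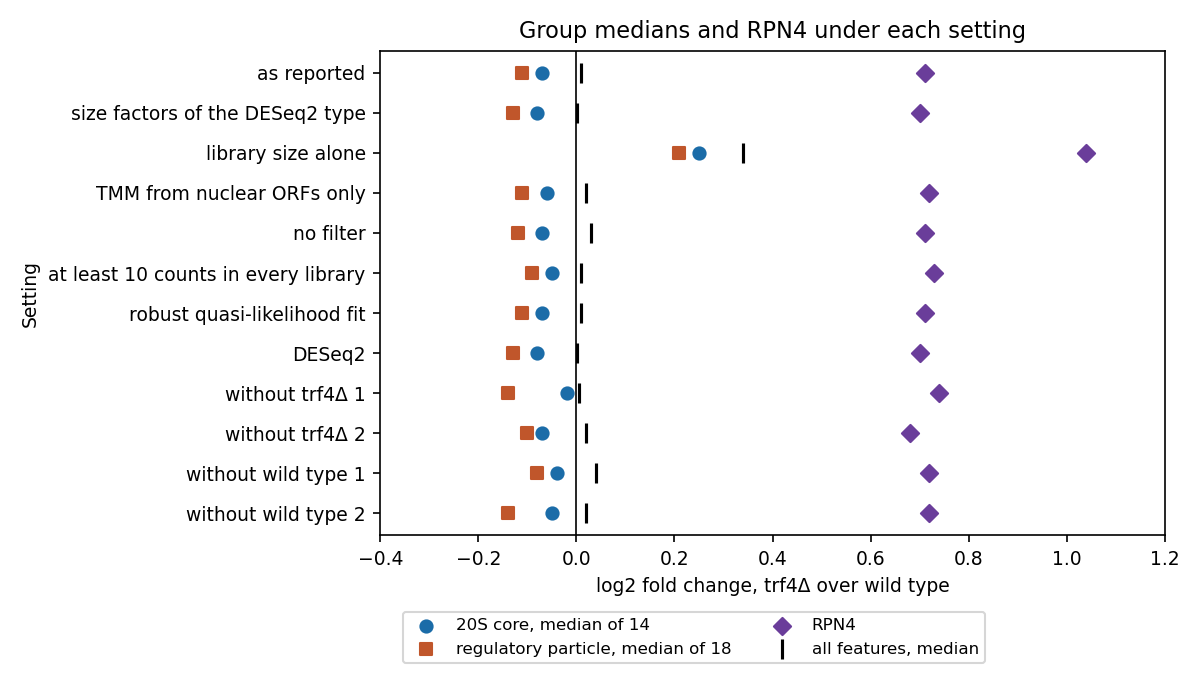
The log2 fold change of RPN4 (diamonds), the median of the 14 core genes (circles), the median of the 18 regulatory particle genes (squares) and the median of all features (bars) under each setting, on an x axis of log2 fold change. With library size alone all 4 move to the right together, RPN4 to 1.04, and in every setting RPN4 stands clear of both medians.

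Genes that carry the PACE element but encode no subunit were read from the same fit. There were 45 such genes in the test, of which 16 rose and 5 fell, and their median log2 fold change was 0.14. They included divergent neighbours whose window held a subunit's own element, such as NOP14 (-0.97), which shares its upstream region with RPN5. How many were such neighbours was not counted, so the 45 are not a set of separate Rpn4 targets. Over all features 31.3% were called higher and 28.9% lower, with a median of 0.01. The share that rose was thus near the background, and the share that fell was under it. The 27 subunits with the exact element had 0 genes called higher and 3 lower and a median of -0.08, and the 5 with 1 substitution had 0 higher, 1 lower (RPN8) and a median of -0.10. Subunits that fell were thus found both with and without the exact letters, and no difference between the sets was tested.

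The other genes of the pathway were taken from 7 lists of 63 genes in all, each tested. Of these, 14 were higher, 7 lower and 42 not called, at a median log2 fold change of 0.09. Both called shares were under those of all features (31.3% higher and 28.9% lower), and the counts for single lists below are to be read against these. The assembly chaperones, which help the core and the base to form and leave the finished particle, had 3 of 10 genes higher and 1 lower. TMA17 (YDL110C), a chaperone of base assembly induced by stress, had 97.0 and 94.5 CPM in trf4Δ against 33.1 and 34.6 CPM in the wild type. This was a rise of 1.5 on the log2 scale (SE 0.09, adjusted p 2.21e-05). UMP1 (YBR173C), which guides maturation of the core, rose by 0.46 (SE 0.10, adjusted p 0.00496), with 91.1 and 81.3 CPM in trf4Δ against 60.5 and 64.8 CPM. IRC25 (YLR021W), which helps to build the alpha ring, fell by 0.34 (adjusted p 0.0235), with 46.7 and 53.5 CPM against 61.8 and 64.8 CPM. Its call was lost with library size alone (-0.02), without the first trf4Δ library (-0.25) and without either wild-type library (-0.37 and -0.30). Neither TMA17 nor UMP1 held the exact PACE letters in its window.

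Among factors that bind the proteasome, 3 of 8 were higher and 1 lower. HUL5 (YGL141W), a ubiquitin ligase on the proteasome, rose by 0.56 (SE 0.09, adjusted p 0.00126), from 66.8 and 65.3 CPM in the wild type to 93.7 and 101 CPM in trf4Δ. ECM29 (YHL030W), which holds the core and the regulatory particle together and carries a PACE element, rose by 0.28 (adjusted p 0.0193), with 186 and 188 CPM against 154 and 155 CPM, a call lost when any 1 library was left out (adjusted p 0.0559 to 0.0859). BLM10 (YFL007W), an alternative cap of the core, had 288 and 294 CPM in trf4Δ against 335 and 349 CPM and fell by 0.23 (adjusted p 0.0418). Its sign turned with library size alone (0.09), and its call was lost without any 1 library (-0.26 to -0.20) and with at least 10 counts asked of every library (adjusted p 0.0568). SEM1, the small lid subunit outside the 33 genes, was at 0.09 (adjusted p 0.421).

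Ubiquitin itself is encoded by UBI4, a stress-induced gene of head-to-tail ubiquitin repeats, and by RPL40A, RPL40B and RPS31, in which it is fused to a ribosomal protein. UBI4 (YLL039C) had 503 and 547 CPM in trf4Δ against 159.5 and 140.3 CPM in the wild type. It rose by 1.81 (SE 0.10, adjusted p 1.79e-05), and it carries a PACE element (chrXII:65349-65377, plus strand), shown here because it is the element of the gene with the largest rise in these lists.
UBI4: cgaattcaaaGGTGGCAAAacccggagcc
The fusion genes went the other way. RPL40A had 678 and 672 CPM in trf4Δ against 1367 and 1307 CPM in the wild type, a fall of 0.99 (adjusted p 0.00012), and RPL40B, with 509.8 and 493 CPM against 1024 and 1038 CPM, fell by 1.04 (adjusted p 8.16e-05). RPL40A and RPL40B are near-identical copies and all of these genes share ubiquitin sequence, so how reads were divided among them is uncertain. The ubiquitin-activating enzyme UBA1, which also has the element, was at 0.01 (95% interval -0.22 to 0.24).

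Of the ubiquitin-conjugating (E2) genes, 4 of 11 were higher and 0 lower, and the share that rose was near the 31.3% of all features. UBC8 (YEL012W), which acts on gluconeogenic enzymes, rose by 1.56 (SE 0.14, adjusted p 8.16e-05), from 13.4 and 11 CPM to 37.6 and 34.4 CPM. UBC5 (YDR059C) rose by 0.92 (SE 0.20, adjusted p 0.00471), with 16.2 and 23.7 CPM in trf4Δ against 11.2 and 9.92 CPM in the wild type, and its similar partner UBC4, far more abundant, was at -0.15. Of 15 ubiquitin ligase genes, 0 were higher and 1 was lower. This was RKR1 (YMR247C), the ligase of ribosome-associated quality control, with 129 and 131 CPM in trf4Δ against 179 and 176 CPM. It fell by 0.45 on the log2 scale (adjusted p 0.0023), a call lost with library size alone (-0.13).

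Among shuttle factors and genes of the Cdc48 segregase, 2 of 8 were higher and 1 lower. DOA1 (YKL213C), a Cdc48 cofactor, rose by 0.63 (adjusted p 0.00332), with 171 and 145 CPM in trf4Δ against 112 and 92.7 CPM. DDI1 (YER143W), a shuttle factor with a protease domain, rose by 0.51 (adjusted p 0.00243), with 72.5 and 66.6 CPM against 48.4 and 49.2 CPM. RAD23 (YEL037C), the shuttle factor that carries ubiquitinated proteins to the base, had 295 and 245 CPM against 331 and 331 CPM and fell by 0.29 (adjusted p 0.0446), which turned to 0.03 with library size alone. The call was lost without the second trf4Δ library (-0.17), without either wild-type library (-0.29 each), with no filter (adjusted p 0.0508) and with at least 10 counts asked of every library (adjusted p 0.058). CDC48, which holds a PACE element, was at 0.07 (95% interval -0.19 to 0.34).

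The genes that act on RPN4 were mostly not called. The activators PDR1 (0.09), PDR3 (0.13), YAP1 (0.14) and HSF1 (0.24) had adjusted p-values between 0.0965 and 0.396. UBR2 (YLR024C), the ligase that marks Rpn4 for degradation, was higher, with 112 and 117 CPM in trf4Δ against 86.0 and 90.1 CPM in the wild type, a rise of 0.38 (SE 0.09, adjusted p 0.00651). Its partner MUB1 was at -0.13 (adjusted p 0.222). RNA levels alone were measured, so the amount of Rpn4 protein was not analysed here.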

How the data were processed

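The authors deposited whole-number counts per feature for 4 libraries, not normalised. The submitters' processing notes name STAR 2.5.3 and sacCer3, whereas the counting program, the annotation and the use of strand are not given in the sources used here. RefSeq lists no gene that overlaps the 33, but features outside RefSeq were not placed.

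All 4 libraries were fitted together, without covariates, by edgeR 4.0.16 (R 4.3.3), using filterByExpr, TMM factors, glmQLFit and glmQLFTest, two-sided. The SE is the log2 fold change over the root of F, and the 95% interval uses the t distribution with the fit's degrees of freedom. Replicates differed beyond counting noise (chi-square per degree of freedom 99.4 in trf4Δ, 60.4 in the wild type). Depth made 3 counts equal to 0.0518 to 0.0561 CPM, and this covers counting error only. The scripts were tested on simulated data.

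Members and lists were chosen with earlier results of these data known, so no list was tested. Values in every library are given for RPN4, the ends of the core, base and lid, the catalytic subunits, RPN11 and, per list, up to 2 called genes in each direction. Other genes named in the text were added after their values were seen. Alternatives were other scalings, filters, a robust fit, DESeq2 1.42.0, thresholds of 0.01 and 0.1 and leaving out each library, where the lone library is assumed to vary like the others. Windows of 250 and 500 bases and 1 mismatch were added after the data were seen.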

Additional observations from a re-analysis of the deposited data

How the results depend on the processing

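With library size alone, 7 core genes and 7 regulatory genes were called higher and 0 regulatory genes lower, the medians were 0.25 and 0.21, and 3162 features were higher and 739 lower. The signs that this setting turned included those of the called RPT4 (0.06), RPN9 (0.05), BLM10 (0.09) and RAD23 (0.03). They also included the uncalled RPN11 (0.26), PRE2 (0.26), PRE3 (0.07) and PRE5 (0.08). The lowest log2 fold change of any subunit was then -0.05, so other small falls turned as well. Size factors of the DESeq2 type and DESeq2 each called 1 core gene lower. At an adjusted p under 0.1, 2 core and 7 regulatory genes were lower, and under 0.01, 0 regulatory genes. Without 1 library, core genes called lower ranged from 0 to 1, regulatory genes called lower from 0 to 5 and called higher from 0 to 2. The core to regulatory ratio by geometric mean in place of the sum was 1.34 and 1.35 for trf4Δ against 1.30 and 1.31 for the wild type, a ratio per gene rather than of sums over 14 and 18 genes. The element was found in 27 subunits with windows of 250 or 500 bases and with its first 8 letters, and in 32 with 1 mismatch. No paired analysis was possible because the labels give no number shared between the groups. With 2 libraries a group the SE of the subunits ran from 0.081 to 0.122 on the log2 scale, so a subunit that was not called is not shown to be unchanged.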
